A study of Mus musculus with 98 samples.

Results

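Gadd45a, Gadd45b and Gadd45g make up the mouse Gadd45 family, and they were followed in all 98 libraries of mouse skeletal muscle as 3 of 24526 genes with a value. They were taken by gene symbol, and all 3 passed the filter on low values in every comparison. The family was chosen by measured values: earlier results from these libraries named Gadd45b among genes that were higher in gastrocnemius 1 day after EEV4-PMO, and Gadd45a among those that were higher in quadriceps after 4 days. Values from these contrasts, and from contrasts built on them, are therefore given as a description without a test. The other days of each time course were compared with the same HSALR PBS libraries that took part in this choice, so their p-values against PBS are not independent of it.

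Gadd45 proteins are small stress-induced proteins that have no enzymatic activity of their own and act by binding others. They bind the replication clamp PCNA, the mitotic kinase CDK1 with cyclin B1, the cell cycle inhibitor encoded by Cdkn1a, and the kinase MAP3K4 at the head of the p38 and JNK pathways, and they have been linked to active removal of DNA methylation. In skeletal muscle of mice, Gadd45a is known as a gene induced by denervation and fasting that promotes fibre atrophy, downstream of the deacetylase HDAC4 and the transcription factor ATF4. Gadd45b is best known as a rapid target of NF-kB and TGF-beta signalling, and Gadd45g as a cytokine-induced gene.

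The study asked how an antisense oligonucleotide against an expanded CUG repeat acts on muscle of HSALR mice, which carry a human skeletal actin transgene with that repeat and serve as a model of myotonic dystrophy. The transgene is driven in skeletal muscle, so the model shows the effect of the repeat in fibres and not in other tissues. All HSALR mice were homozygous, and FVB/NJ mice given PBS were the wild type. The oligonucleotide was a (CAG)7 phosphorodiamidate morpholino (PMO), used unconjugated or joined to EEV4 as EEV4-PMO. The dose cohort was gastrocnemius 7 days after dosing: wild type on PBS (n = 4), and HSALR on PBS (n = 8), PMO (30 mg/kg, n = 4) or the EEV4-PMO conjugate (15 or 30 mg/kg, n = 4 for each dose). A time course after 15 mg/kg of the conjugate covered gastrocnemius (1, 2 and 4 days) and quadriceps (the same days and 7 days). Both muscles also came from FVB and HSALR mice 4 days after PBS (n = 4 in every group), and all days of a muscle were compared with the same PBS libraries. Treatment and day therefore cannot be told apart for the treated groups of 1, 2 and 7 days. A separate quadriceps cohort had nascent RNA, captured through ethynyl uridine (EU), and total RNA at 1 and 2 days with the conjugate (15 mg/kg, n = 3 for each day) and at 4 days with PBS (n = 4), isolated with another kit than all other cohorts. The last cohort was quadriceps at 3 months, with the conjugate (15 mg/kg, n = 6) or PBS (n = 4).

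The genes lie on different chromosomes of GRCm38: Gadd45a (ENSMUSG00000036390.8) at chr6:67035096-67037457 on the minus strand, Gadd45b (ENSMUSG00000015312.9) at chr10:80930073-80932204 on the plus strand, and Gadd45g (ENSMUSG00000021453.2) at chr13:51846678-51848468 on the plus strand. The longest annotated coding transcript of each has 4 exons, and the coding parts span 165, 160 and 159 codons. The promoters are shown because the members moved in different directions in these data. Each line holds the 250 bases before the RefSeq gene start, 5′ to 3′ on the gene's strand, from the table of build GRCm38.p6, at chr6:67037408-67037657 for Gadd45a, chr10:80929841-80930090 for Gadd45b and chr13:51846425-51846674 for Gadd45g. Capitals mark the motifs found.
Gadd45a: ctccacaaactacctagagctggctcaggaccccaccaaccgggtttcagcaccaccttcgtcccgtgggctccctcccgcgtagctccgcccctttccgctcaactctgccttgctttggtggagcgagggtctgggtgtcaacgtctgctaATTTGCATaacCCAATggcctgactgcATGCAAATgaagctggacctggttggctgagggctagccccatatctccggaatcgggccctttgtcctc
Gadd45b: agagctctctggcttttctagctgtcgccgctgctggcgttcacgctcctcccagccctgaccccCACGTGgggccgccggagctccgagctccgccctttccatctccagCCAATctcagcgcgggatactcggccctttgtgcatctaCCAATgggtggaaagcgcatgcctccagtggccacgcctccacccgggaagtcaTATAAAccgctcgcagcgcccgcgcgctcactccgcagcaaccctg
Gadd45g: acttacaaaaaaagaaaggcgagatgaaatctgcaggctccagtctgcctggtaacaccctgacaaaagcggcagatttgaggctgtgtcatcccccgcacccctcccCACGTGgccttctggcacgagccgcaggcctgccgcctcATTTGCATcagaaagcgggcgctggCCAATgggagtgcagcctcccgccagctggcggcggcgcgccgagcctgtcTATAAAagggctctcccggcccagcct
The motifs were searched on both strands, and no match overlapped another. The octamer ATTTGCAT occurred at positions -97 and -70 from the start of Gadd45a and at -103 in Gadd45g, was not in the window of Gadd45b, and was held by 1.6% of all 32851 promoters of that length. The CCAAT box (CCAAT), held by 33.8% of promoters, lay at -86 in Gadd45a, at -139 and -100 in Gadd45b and at -78 in Gadd45g. A TATA box (TATAAA, 12.4%) lay at -46 in Gadd45b and -27 in Gadd45g, and the E box CACGTG (6.02%) at -185 in Gadd45b and -142 in Gadd45g. No window held the letters of an AP-1 site (TGANTCA, 6.75%) or of a full cAMP response element (TGACGTCA, 1.55%). These matches describe letters only.

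The authors deposited expression as TPM (transcript abundance scaled to a fixed total per library), which is corrected for transcript length and summed to between 999972 and 999994 in each library, so the number of reads behind a value is unknown. Muscle fibre genes were abundant throughout, with a median of 48100 TPM for Acta1, the skeletal actin. In gastrocnemius after 4 days of EEV4-PMO, replicate 2 stood apart: 6 lymphocyte markers summed to 358 TPM there and to 0.626 to 1.21 TPM in the other 3 libraries, and 3 brown fat markers to 747 against 1.64 to 3.12 TPM. Results that rest on that library are given with and without it. Changes are differences of log2(TPM + 1) ± SE from limma, a gene was called at an adjusted p (Benjamini-Hochberg) under 0.05 over all genes tested, and the labels do not say whether libraries of a group came from separate animals, so a p-value here speaks of the variation among libraries. In whole muscle, fewer cells of a type and less RNA per cell cannot be told apart.

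Gadd45g had the highest TPM of the family in most groups, with a median of 95.7 TPM over all libraries and a range from 18.3 to 420 TPM. Gadd45a followed with a median of 36.9 TPM and the widest range, from 15.4 to 827 TPM. Gadd45b had a median of 19.5 TPM, from 5.58 to 153 TPM. Quadriceps after 4 days of EEV4-PMO was the group in which Gadd45a had by far its highest mean and Gadd45b its lowest of the time courses.

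**Figure D1:**
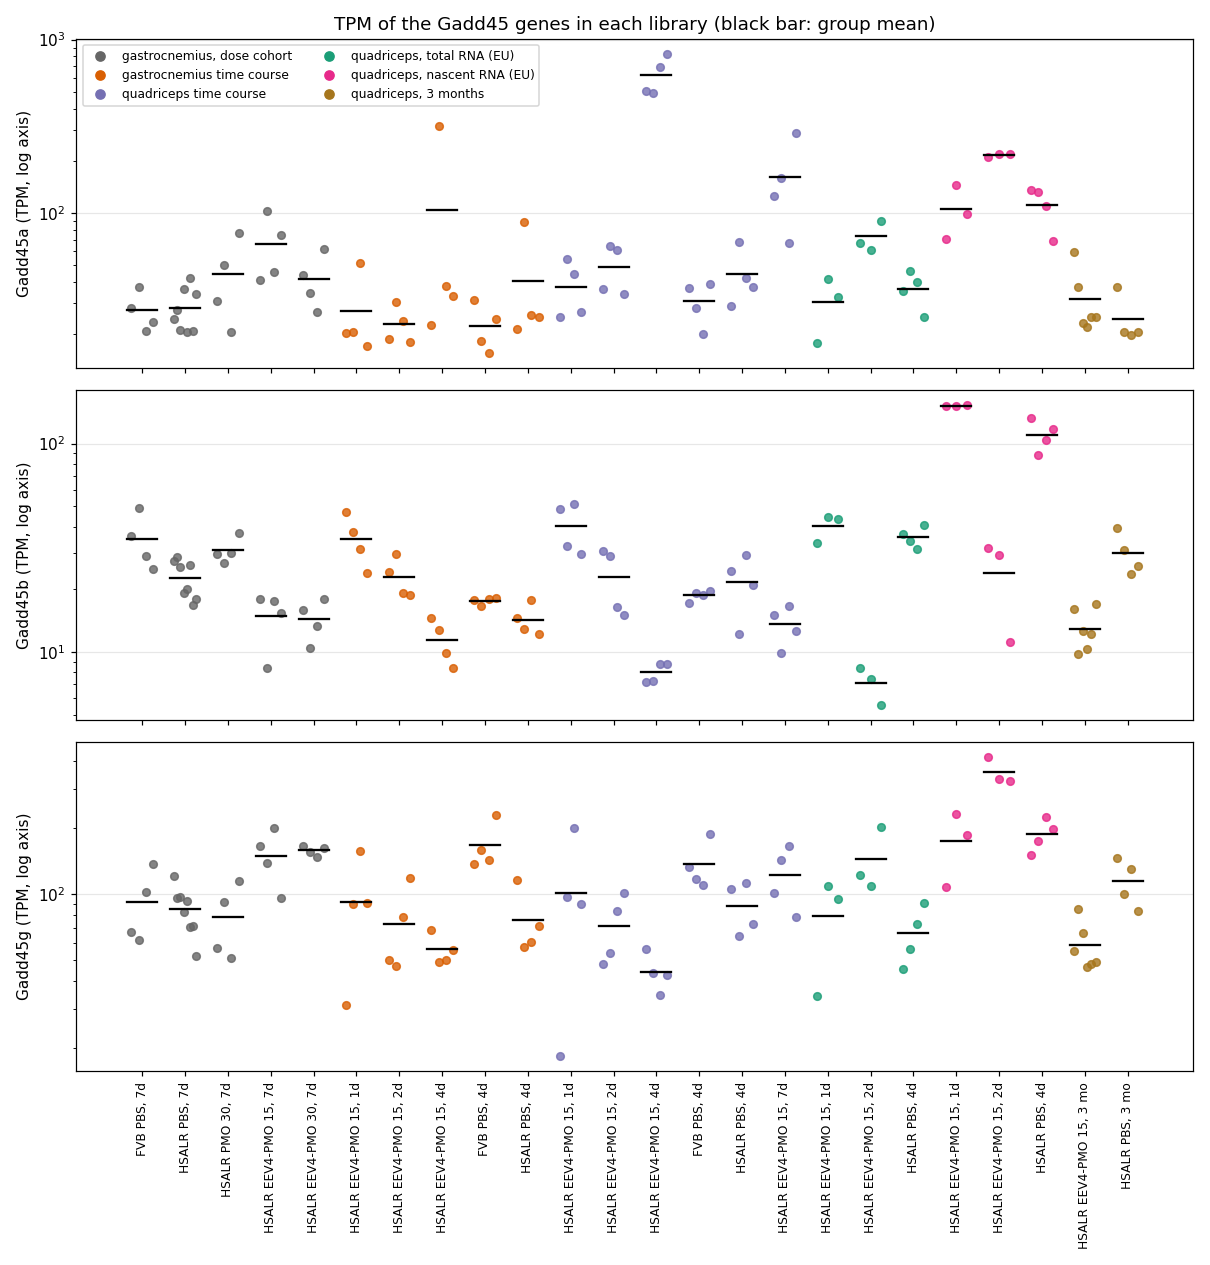
TPM of Gadd45a, Gadd45b and Gadd45g (rows, log axes) in each of the 98 libraries, with groups along the x axis, colours for the cohorts and black bars for group means. The 4 quadriceps libraries at 4 days of EEV4-PMO sit between 490 and 827 TPM for Gadd45a, above every other library in the plot, and between 7.21 and 8.79 TPM for Gadd45b.

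In gastrocnemius 7 days after dosing, EEV4-PMO went with more Gadd45g and less Gadd45b than PBS in HSALR mice at both doses, and Gadd45a was called higher at 15 mg/kg. For Gadd45a, FVB libraries held 28.3, 37.3, 20.9 and 23.4 TPM, and the 8 HSALR PBS libraries ran from 20.6 over a median of 26.0 to 42.1 TPM. The PMO libraries held 30.9, 50.1, 20.6 and 76.2 TPM of Gadd45a, those of EEV4-PMO at 15 mg/kg 41.2, 102, 45.6 and 74.8 TPM, and those at 30 mg/kg 43.8, 34.6, 26.8 and 61.6 TPM. At 15 mg/kg 3 of 4 libraries lay above all HSALR PBS libraries, and replicate 1 lay just inside their range. The mean was 65.9 ± 28.3 TPM (SD, n = 4) against 28.4 ± 8.19 TPM (SD, n = 8), a log2 change of 1.14 ± 0.30 (limma, adjusted p = 0.0183). This call was lost without EEV4-PMO replicate 2, where the change was 0.90, and without replicate 4. At 30 mg/kg Gadd45a was not called (0.52 ± 0.30, limma adjusted p = 0.273).

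Gadd45b went the other way. Its 8 HSALR PBS libraries ran from 16.9 over a median of 22.9 to 28.6 TPM, and the FVB libraries held 35.8, 49.2, 28.8 and 25.1 TPM. The PMO libraries held 29.4, 26.9, 30.0 and 37.3 TPM of Gadd45b, those of EEV4-PMO at 15 mg/kg 18.1, 8.34, 17.6 and 15.4 TPM, and those at 30 mg/kg 15.9, 10.5, 13.3 and 17.9 TPM. All 8 conjugate libraries thus lay below the median of HSALR PBS, and all 8 FVB and PMO libraries lay above it, with some overlap of the ranges. At the lower dose limma called Gadd45b lower (-0.61 ± 0.20, adjusted p = 0.049), as it did at the higher dose (-0.62 ± 0.20, adjusted p = 0.0356), and it called the gene higher in FVB (0.57 ± 0.20, adjusted p = 0.043). These 3 calls sit close to the threshold. The call at 15 mg/kg was lost without any one of PBS replicates 1 to 6 or treated replicates 2 to 4 (-0.72 to -0.37 over libraries left out). The call at 30 mg/kg was lost without any of PBS replicates 1, 2, 3 and 6 or treated replicates 1 to 3 (-0.73 to -0.49), and that in FVB without FVB replicates 1, 2 or 3 or PBS replicates 4, 5, 7 or 8 (0.39 to 0.71). Cell type markers differed between FVB and HSALR PBS as well: the endothelial sums were 196.1 to 235.6 against 129.4 to 169.4 TPM (5 of 5 markers called higher), the muscle fibre sums 150000 to 164700 against 129600 to 142100 TPM (4 of 6 higher, 1 lower), and the macrophage sums 34.7 to 62.8 against 48.7 to 119 TPM (3 of 7 lower). In that contrast 20.6% of all genes were called, and the part of these markers in the FVB value of Gadd45b was not tested.

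Gadd45g was higher after the conjugate. Its HSALR PBS libraries ran from 52.0 over a median of 87.6 to 120 TPM, while EEV4-PMO libraries held 165, 138, 199 and 95.5 TPM at 15 mg/kg and 165, 156, 147 and 162 TPM at 30 mg/kg. At 30 mg/kg every library lay above every PBS library, as held for 9.50% of all genes, and at 15 mg/kg only replicate 4 lay inside the PBS range. The change was 0.79 ± 0.24 at 15 mg/kg (limma, adjusted p = 0.0376) and 0.91 ± 0.24 at 30 mg/kg (limma, adjusted p = 0.0128). Leaving out any of PBS replicates 4, 6, 7 and 8 or treated replicates 1 to 3 ended the call at 15 mg/kg (0.63 to 0.98), and leaving out no single library ended that at 30 mg/kg. The FVB libraries, at 67.0, 61.9, 102 and 136 TPM, lay across the HSALR PBS range, with no call (0.07 ± 0.24, limma adjusted p = 0.882).

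Read against all genes, limma called 3 of 3 members at 15 mg/kg, where it called 11.1% of 13885 genes, and 2 of 3 at 30 mg/kg, where it called 15.0%. In FVB against HSALR PBS it called 1 of 3, beside 20.6% of genes. The doses, each set against the same PBS libraries, differed from each other for no member: the change from 15 to 30 mg/kg was -0.62 for Gadd45a (95% interval -1.34 to 0.11), -0.01 for Gadd45b (-0.49 to 0.46) and 0.13 for Gadd45g (-0.45 to 0.70), all with a limma adjusted p of 1, and 0.0432% of all genes were called.

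The conjugate and the unconjugated oligonucleotide were compared at the same dose of 30 mg/kg and the same 7 days, over 3 genes. Conjugated PMO left less Gadd45b and more Gadd45g than unconjugated PMO. The log2 difference for Gadd45b was -1.06 ± 0.23 (95% interval -1.54 to -0.59, limma adjusted p = 0.00338) and that for Gadd45g 1.07 ± 0.28 (0.49 to 1.65, limma adjusted p = 0.0138), and the groups did not overlap for either gene, as held for 17.7% of all genes. These were 2 of 3 members called, beside 11.7% of genes. Gadd45a differed by 0.01 ± 0.35 (-0.72 to 0.73, limma adjusted p = 0.997), an interval that leaves room for a change in either direction. Unconjugated PMO itself was called different from PBS for 0 of 3 members and 0 of 13885 genes by limma, with 1086 genes at an unadjusted p under 0.05. Among those was Gadd45b, at 0.44 ± 0.20 (unadjusted p = 0.0357, limma adjusted p = 0.595). Against wild type, muscle given 30 mg/kg of the conjugate had less Gadd45b (-1.20 ± 0.23, limma adjusted p = 0.00156) and more Gadd45g (0.84 ± 0.28, limma adjusted p = 0.0487), with no overlap for either, as for 22.2% of genes; 12.7% of genes were called. The Gadd45g call was lost without any of FVB replicates 1 to 3 or of the 4 treated libraries (0.68 to 1.06).

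**Figure D2:**
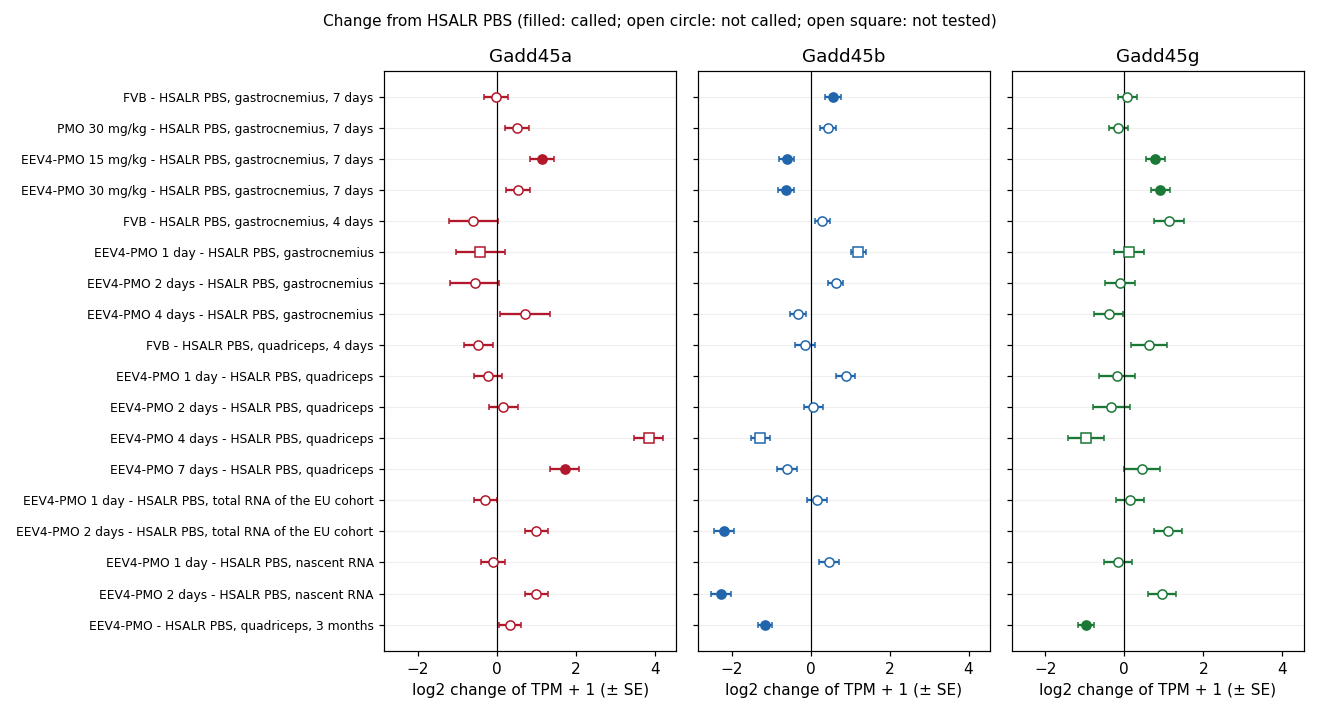
Change from HSALR PBS of each Gadd45 gene (panels; x axis, log2 change of TPM + 1 with SE bars) in 18 contrasts (y axis); filled points were called by limma, open circles were not, and open squares were not tested because they chose the genes. Gadd45a stands out at 4 and 7 days in quadriceps (3.84 and 1.72), and Gadd45b lies farthest below 0 at 2 days of the EU cohort (-2.19 and -2.27).

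In quadriceps given the conjugate, Gadd45a stood near PBS for 2 days, many times above it at 4 days and higher still than PBS at 7 days. HSALR PBS libraries held 29.0, 68.0, 42.3 and 37.2 TPM of Gadd45a and FVB libraries 36.8, 28.2, 20 and 38.9 TPM. Treated libraries held 25.2, 54.0, 44.4 and 26.8 TPM at 1 day, 36.2, 64.3, 61.4 and 34.2 TPM at 2 days, 503, 490, 694 and 827 TPM at 4 days, and 124, 160, 67.4 and 290 TPM at 7 days. The 4-day libraries lay above all others in the muscle, and at 7 days 3 of 4 libraries lay above every PBS library, with replicate 3 just under the highest of them. The 4-day mean of 628 ± 162 TPM (SD, n = 4) was 14.2 times the PBS mean of 44.1 ± 16.9 TPM (SD, n = 4), a log2 difference of 3.84 ± 0.37 that ranked 5 of 13177 genes by size. Because this contrast chose the gene, that difference has no test here. At 7 days, in other treated libraries, the mean was 160 ± 94.3 TPM, 3.63 times PBS (1.72 ± 0.37, limma adjusted p = 0.00356). The call at 7 days held without any single library (1.37 to 2.07). The PBS libraries are those of the 4-day contrast that chose the gene, so this p is not independent of the choice. It was 1 of 3 members, beside 13.9% of genes called, and without PBS replicate 2 Gadd45b was called as well (-0.84, limma adjusted p = 0.0234).

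The earlier days gave no call for Gadd45a: the change was -0.23 ± 0.37 at 1 day (limma adjusted p = 0.886) and 0.16 ± 0.37 at 2 days (limma adjusted p = 0.883). From 1 to 7 days Gadd45a rose by 1.95 ± 0.37 (limma adjusted p = 0.00217), and at 7 days it was above wild type by 2.19 ± 0.37 (limma adjusted p = 0.000524), with no overlap, as for 17.3% of genes. The group means in both comparisons come from none of the libraries that chose the gene, but the spread shared over the fit includes those libraries. Both stayed called in all 14 alternatives, the compared groups alone among them, with limma adjusted p up to 0.0351 and 0.0257. limma called 11.3% and 12.9% of genes in these comparisons. Untreated HSALR and FVB quadriceps were not called different for any member at 4 days (changes in FVB of -0.47, -0.14 and 0.63 for Gadd45a, Gadd45b and Gadd45g, with limma adjusted p of 0.447, 0.772 and 0.411), where 13.7% of genes were called.

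Gadd45b in quadriceps ran in the opposite order to Gadd45a. Treated libraries held 48.4, 32.1, 51.1 and 29.6 TPM at 1 day, 30.7, 29.0, 16.5 and 15.1 TPM at 2 days, 7.21, 7.22, 8.71 and 8.79 TPM at 4 days, and 15.1, 9.93, 16.6 and 12.6 TPM at 7 days. PBS libraries held 24.4, 12.1, 29.3 and 20.9 TPM and FVB libraries 17.1, 19.1, 18.9 and 19.6 TPM. At 1 day every treated library lay above every PBS library, as for 7.13% of genes, at 2 days they were mixed, and at 4 days every treated library lay below. The change at 1 day, 0.89 ± 0.24, did not pass (limma adjusted p = 0.106), nor did 0.07 at 2 days (limma adjusted p = 0.933) or -0.60 ± 0.24 at 7 days (limma adjusted p = 0.111). limma called 0 of 3 members at 1 day, beside 0.615% of genes and 1395 genes at an unadjusted p under 0.05, and 0 of 3 at 2 days, beside 1.94% and 1942 genes. The 4-day difference, -1.28 ± 0.24, is given without a test. The fall from 1 to 7 days was called (-1.49 ± 0.24, limma adjusted p = 0.000799), and leaving out any library kept it between -1.62 and -1.36. Gadd45b was chosen as higher in gastrocnemius at 1 day, and the labels do not say whether both muscles came from the same animals. The p of this fall may thus not be independent of the choice.

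Gadd45g in quadriceps spread widely at 1 day, with 18.3, 96.8, 199 and 90 TPM. It held 48.2, 53.9, 83.8 and 101 TPM at 2 days, 56.3, 43.5, 34.8 and 42.8 TPM at 4 days and 101, 143, 165 and 78.2 TPM at 7 days, against 105, 64.2, 112 and 72.7 TPM in PBS and 132, 117, 110 and 187 TPM in FVB. All 4-day libraries lay below all PBS libraries, so that at 4 days each member had separate ranges in treated and PBS muscle, as 14.7% of all genes had; this contrast chose Gadd45a, so nothing is read from that count. The differences were -0.18 at 1 day, -0.33 at 2 days, -0.96 ± 0.46 at 4 days (not tested) and 0.44 ± 0.46 at 7 days, and the limma adjusted p values of those tested lay between 0.575 and 0.933.

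Genes of the denervation response were high together with Gadd45a at 4 days. Of 12 such genes 10 were tested, and 7 were higher than in PBS and 0 lower. The median change was 1.71 against -0.01 over all genes. In that contrast, which also chose Gadd45a, 9.10% of genes passed. The gene list was chosen with earlier results of these data known, so the count is a description and nothing is read from it. Hdac4, the deacetylase that represses other genes after loss of nerve input, stood at 140 ± 33.5 TPM against 29.8 ± 4.03 TPM (SD, n = 4 each). Trim63 and Fbxo32, the ubiquitin ligases of muscle atrophy, stood at 751 ± 66.7 against 214 ± 8.83 TPM and at 383 ± 79.3 against 111 ± 26.6 TPM. Myog, a myogenic transcription factor, stood at 148.5 ± 52.7 against 44.9 ± 25 TPM, and Runx1, a transcription factor of denervated fibres, at 38.2 ± 10.6 against 9.19 ± 2.95 TPM. Chrna1, a subunit of the acetylcholine receptor, and Musk, the receptor kinase of the synapse, were the others (changes of 1.67 and 1.13). Chrnd, Dach2 and Ncam1 were not called, at 0.63, -0.02 and -0.49. At 7 days 2 of 10 were called higher, Chrna1 (1.81 ± 0.30, limma adjusted p = 0.000465) and Hdac4 (0.67 ± 0.19, limma adjusted p = 0.0242), where 13.9% of all genes were called, with a list median of 0.14, and Trim63 and Fbxo32 stood at 0.08 and -0.07. At 1 and 2 days 0 of 10 were called, with medians of -0.11 and -0.16 beside 0.03 and 0.06 over all genes.

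**Figure D3:**
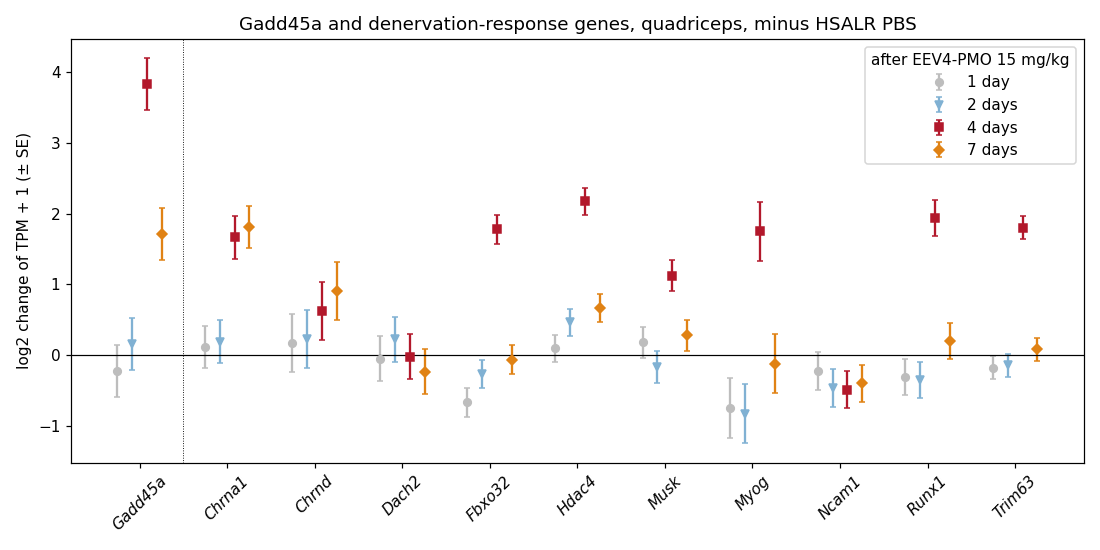
Change from HSALR PBS in quadriceps (y axis, log2 change of TPM + 1 with SE bars) of Gadd45a and 10 denervation genes (x axis) 1, 2, 4 and 7 days after the conjugate. At 4 days (squares) Gadd45a stands at 3.84 and 7 of the other genes between 1.13 and 2.18, while at 1 and 2 days the highest of the denervation genes is Hdac4 at 0.47.

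The 7 macrophage markers summed to 55.6 to 123 TPM at 4 days and 81.4 to 161 TPM in PBS, and 0 of 7 were called; the 6 lymphocyte markers summed to 0.182 to 0.355 TPM and to 0.185 to 0.636 TPM, too low to be tested. The muscle fibre markers summed to 135400 to 159700 TPM at 4 days and 114300 to 144400 TPM in PBS. At 7 days 4 of 5 fibroblast markers were called lower, Col1a1 by the most (-2.14 ± 0.40, limma adjusted p = 0.00139), and their sums of 409 to 658 TPM lay below those of 1060 to 1661 TPM in PBS. The macrophage sums of 39.5 to 52.7 TPM at 7 days also lay below the PBS range, with 1 of 7 markers called (Csf1r, a growth factor receptor, -1.39 ± 0.45, limma adjusted p = 0.0439), and the muscle fibre sums of 156100 to 167900 TPM lay above it, with 4 of 6 markers called higher and 1 lower. At 7 days 13.9% of all genes were called, and the part of these markers in the 7-day values of the members was not tested.

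In gastrocnemius 3 of 4 libraries at 4 days stayed within the PBS range of Gadd45a, whose top is PBS replicate 2 alone. The treated libraries of 38 and 33.0 TPM lay above all other PBS libraries. Gadd45a held 20.3, 20.5, 51.4 and 17.1 TPM at 1 day, 18.7, 30.7, 23.7 and 17.9 TPM at 2 days and 22.5, 319, 38 and 33.0 TPM at 4 days, against 21.3, 88.6, 25.7 and 25.1 TPM in PBS and 31.4, 18.3, 15.4 and 24.4 TPM in FVB. The 319 TPM came from replicate 2, the library with the lymphocyte and brown fat markers, and the part of those cells in its Gadd45a value was not tested. Its 12 denervation genes summed to 963 TPM against 531 to 686 TPM in the other 3 libraries, and its muscle fibre markers to 90440 against 127300 to 144600 TPM. PBS replicate 2, at 88.6 TPM, had lymphocyte and brown fat sums of 0.875 and 1.67 TPM. The 4-day change of Gadd45a was 0.71 ± 0.62 (limma adjusted p = 0.629) and -0.13 without treated replicate 2, so its sign depends on that library. It was 1.17 without PBS replicate 2, and no library left out made it a call. limma called 0 of 3 members at 4 days, with 0.518% of genes and 1994 genes at an unadjusted p under 0.05; Gadd45b stood at -0.32 ± 0.19 and Gadd45g at -0.40 ± 0.38.

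Gadd45b in gastrocnemius was highest on the first day. It held 46.8, 37.5, 31.2 and 24.1 TPM at 1 day, 24.3, 29.6, 19.3 and 18.8 TPM at 2 days, 14.6, 12.7, 9.88 and 8.35 TPM at 4 days, and 14.5, 12.9, 17.7 and 12.2 TPM in PBS. All libraries of 1 and 2 days lay above all PBS libraries, as for 11.6% and 15.2% of genes, and those of 4 days overlapped PBS. The 1-day contrast chose the gene, so nothing is read from its share. The 1-day mean of 34.9 ± 9.63 TPM was 2.44 times the PBS mean of 14.3 ± 2.47 TPM (SD, n = 4 each), a difference of 1.20 ± 0.19 that chose the gene and has no test here, in a contrast where 1.38% of genes were called. At 2 days the change of 0.64 ± 0.19 was not called (limma adjusted p = 0.122), like the other members, at -0.56 for Gadd45a and -0.10 for Gadd45g; limma called 1.07% of genes, and 1718 genes had an unadjusted p under 0.05. From 1 to 4 days the differences were 1.13 for Gadd45a, -1.52 for Gadd45b and -0.52 for Gadd45g, in a contrast that shares the libraries that chose the genes. The Gadd45a difference was 0.3 without replicate 2 of the 4-day group, the library with lymphocyte and brown fat markers.

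Of the acute-phase and cytokine genes, few were called on the first day. In quadriceps limma called Lcn2, encoding a lipocalin, and Socs3, a brake on cytokine signalling, higher than in PBS (3.24 and 0.98, adjusted p = 0.0162 and 0.0218), 2 of 7 tested genes of the list, beside 0.615% of all genes. The list median was 0.04 against 0.03 over all genes, and the summed list overlapped between treated (135.1 to 189.2 TPM) and PBS libraries (97.93 to 139.7 TPM). In gastrocnemius, where the contrast chose Gadd45b, Lcn2 and Socs3 stood at 3.99 and 1.76, given without a test.

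Wild-type gastrocnemius at 4 days had 137, 158, 143 and 227 TPM of Gadd45g against 116, 57.6, 60.3 and 71.6 TPM in HSALR PBS. The ranges were separate, as for 16.2% of genes, yet the change of 1.14 ± 0.38 was not called (limma adjusted p = 0.0735), so 0 of 3 members were called beside 8.26% of genes and 2987 genes at an unadjusted p under 0.05. It was called without PBS replicate 1 (1.36). Treated libraries held 31.2, 89.7, 157 and 90.8 TPM at 1 day, 49.9, 47.0, 78.3 and 117 TPM at 2 days and 68.5, 49.2, 49.9 and 55.8 TPM at 4 days, 11 of 12 below the wild-type range. At 1 day replicate 1 was lowest and replicate 3 highest for Gadd45g in both muscles, while replicates 2 and 4 differed in order. The labels do not say whether equal numbers are equal animals.

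Between the muscles, no member was called different in FVB or in HSALR PBS mice: gastrocnemius minus quadriceps was -0.46, -0.08 and 0.28 for Gadd45a, Gadd45b and Gadd45g in FVB, where 14.4% of genes were called and 3771 had an unadjusted p under 0.05, and -0.32, -0.52 and -0.23 in HSALR PBS, where 21.8% were called and 4593 had such a p. The Gadd45b value in HSALR PBS, with a limma adjusted p of 0.103, was called without quadriceps PBS replicate 2 (-0.76). It was also called with rescaling and with the replicate block. Genotype changes did not pass as different between the muscles either (-0.13, 0.44 and 0.51, limma adjusted p of 0.974, 0.806 and 0.876, 0 of 3 members beside 0.00724% of genes and 934 at an unadjusted p under 0.05), nor did the 2-day changes (-0.72, 0.57 and 0.22, limma adjusted p of 0.863, 0.807 and 0.947, with 0 of 13806 genes called and 890 at an unadjusted p under 0.05). At 4 days of EEV4-PMO the Gadd45a change in gastrocnemius was lower than that in quadriceps by a difference of -3.13. It was -3.96 without gastrocnemius treated replicate 2, the library with lymphocyte and brown fat markers. This comparison is built on the quadriceps contrast that chose the gene and is not tested.

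At 2 days in the EU cohort, Gadd45b was sharply lower in treated quadriceps, in total and in nascent RNA alike. Total RNA held 36.7, 34.3, 31.3 and 40.6 TPM of Gadd45b in PBS, 33.2, 44.5 and 43.6 TPM at 1 day and 8.34, 7.44 and 5.58 TPM at 2 days. Nascent RNA held 132, 87.9, 104 and 117 TPM in PBS, 151, 152 and 153 TPM at 1 day and 31.5, 29.3 and 11.2 TPM at 2 days. At 2 days all treated libraries lay far below PBS in both kinds of RNA, and at 1 day all nascent libraries lay above PBS, as for 15.5% of genes. The total RNA mean of 7.12 ± 1.41 TPM (SD, n = 3) was 5.02 times lower than the PBS mean of 35.7 ± 3.91 TPM (SD, n = 4), a change of -2.19 ± 0.25 (limma adjusted p = 0.00129) that ranked 18 of 13891 genes by size. In nascent RNA the fall was 4.6-fold (-2.27 ± 0.25, limma adjusted p = 0.00018). The nascent call was lost when only these 2 groups were fitted (limma adjusted p = 0.0817). At 1 day the changes of 0.17 in total and 0.47 in nascent RNA were not called.

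Gadd45a and Gadd45g stood higher at 2 days without passing the test. Total RNA held 35.5, 46.0, 39.9 and 25 TPM of Gadd45a in PBS and 67.4, 61.4 and 90.3 TPM at 2 days, and nascent RNA 135, 132, 109 and 69.2 TPM against 209, 218 and 220 TPM. Total RNA held 45.5, 56.2, 72.8 and 90.9 TPM of Gadd45g in PBS and 122, 108 and 202 TPM at 2 days, and nascent RNA 151, 175, 222 and 197 TPM against 420, 331 and 325 TPM. The ranges of treated and PBS muscle were thus separate for 3 of 3 members, which held for 16.2% of all genes in total RNA and 13.7% in nascent RNA. For Gadd45a the change was 0.99 ± 0.30 in total (limma adjusted p = 0.148) and 0.99 ± 0.30 in nascent RNA (limma adjusted p = 0.0558). For Gadd45g it was 1.10 ± 0.35 (limma adjusted p = 0.18) and 0.95 ± 0.35 (limma adjusted p = 0.125). limma thus called 1 of 3 members in each, beside 0.590% of genes in total and 6.26% in nascent RNA. At 1 day it called 0 of 3 in each, beside 0.0144% of genes and 690 genes at an unadjusted p under 0.05 in total RNA, and 1.05% and 2248 genes in nascent RNA.

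The same muscle, dose and day in the time course looked different. There Gadd45b stood at 22.8 ± 8.16 TPM at 2 days and 21.7 ± 7.24 TPM in PBS (SD, n = 4 each), a change of 0.07, where the EU cohort gave -2.19, and Gadd45a changed by 0.16 where the EU cohort gave 0.99. The PBS level of Gadd45b differed as well, at 35.7 ± 3.91 TPM in total RNA of the EU cohort (SD, n = 4). The cohorts differ in their samples, in the use of EU and in the RNA extraction kit, and these cannot be told apart. No test was made between cohorts.

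All 3 members took a larger share of nascent than of total RNA. In PBS libraries with the same number, nascent over total TPM was 3.05 ± 0.51 for Gadd45a, 3.10 ± 0.462 for Gadd45b and 2.91 ± 0.508 for Gadd45g (SD, n = 4 each). The log2 differences of 1.57, 1.59 and 1.51 were all called (limma adjusted p = 5.29e-05, 7.26e-06 and 0.000438), but 79.3% of genes were called and the median over all genes was 0.73, so that a difference in this direction is common. The same holds for the separate ranges of 3 of 3 members, as 77.5% of genes had them. The ratio stayed near that level after treatment, at 3.50, 3.83 and 2.40 at 1 day and 3.03, 3.24 and 2.70 at 2 days. For no member was a difference between the nascent and the total change called at 2 days (-0.00, -0.08 and -0.15, limma adjusted p of 1 for each). The fit did not pair libraries by number. Its 95% intervals were -0.89 to 0.89, -0.83 to 0.67 and -1.21 to 0.90, which leave room for a difference in either direction. Over all genes limma called 0 for that difference, with 601 at an unadjusted p under 0.05. At 1 day the differences were 0.19, 0.30 and -0.29 (limma adjusted p of 0.957, 0.938 and 0.954), where 0.00720% of genes were called and 727 had an unadjusted p under 0.05.

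**Figure D4:**
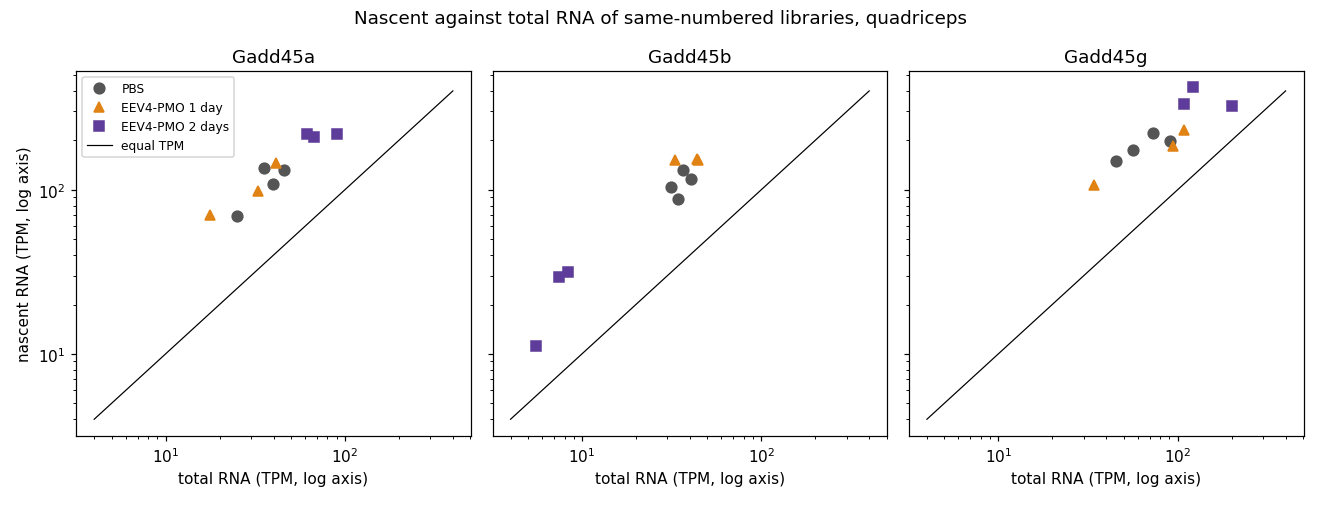
Nascent TPM (y axis) against total TPM (x axis) of libraries with the same number in the EU cohort, on log axes, for each Gadd45 gene; the line marks equal TPM. All points lie above the line, and the Gadd45b points of 2 days (squares) lie at 5.58 to 8.34 TPM total and 11.2 to 31.5 TPM nascent, apart from PBS and 1 day.

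Among the genes tied to Gadd45 regulation and the glucocorticoid response, a few rose at 2 days of the EU cohort. Hdac4 rose in total RNA (0.95 ± 0.17, limma adjusted p = 0.0158) and in nascent RNA (0.78 ± 0.17, limma adjusted p = 0.0121). In total and nascent RNA limma called 1 and 3 of 14 tested regulators, beside 0.590% and 6.26% of all genes. Smad3, a transcription factor of TGF-beta signalling, and Foxo1, a factor of fasting and atrophy, rose in nascent RNA by 0.69 and 0.68 (limma adjusted p = 0.0069 and 0.0254). Tsc22d3, the glucocorticoid-induced leucine zipper, rose by 0.97 in total and 1.41 in nascent RNA (limma adjusted p = 0.0146 and 0.000277), and Lcn2 by 2.41 and 2.11. In nascent RNA 3 of 11 glucocorticoid genes rose, beside 6.26% of all genes called, with a list median of 0.72 against -0.11 over all genes. Of 7 macrophage markers 1, Cd68, was called lower in nascent RNA (-1.07 ± 0.27, limma adjusted p = 0.0254), beside the same 6.26% of genes. The macrophage list summed to 45.8 to 112 TPM at 2 days and 103 to 143 TPM in PBS in total RNA. Its part in the fall of Gadd45b was not tested.

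At 3 months, quadriceps given EEV4-PMO had less Gadd45b and less Gadd45g than quadriceps given PBS, and Gadd45a was not called. Gadd45b in the 6 treated libraries ran from 9.73 over a median of 12.4 to 17 TPM, and the PBS libraries held 39.5, 30.7, 23.7 and 25.9 TPM. Gadd45g in the treated libraries held 55.1, 85.2, 66.5, 46.3, 48.0 and 49.1 TPM, and in PBS 146, 99.9, 130 and 83.4 TPM. The ranges were separate for Gadd45b, as for 10.9% of genes, and touched for Gadd45g, where treated replicate 2 lay above the lowest PBS library. The Gadd45b mean was 2.31 times lower (-1.15 ± 0.18, limma adjusted p = 0.0282) and the Gadd45g mean 1.97 times lower (-0.97 ± 0.20, limma adjusted p = 0.0287), 2 of 3 members beside 7.65% of genes. Both calls are fragile: that of Gadd45b was lost without treated replicates 2, 3, 4 or 5 or PBS replicates 1, 2 or 4 (-1.25 to -1.01), and that of Gadd45g without treated replicates 2 to 5 or any PBS replicate (-1.11 to -0.84). The median change of all genes was -0.17, and after libraries were rescaled to a median of 0 the values were -0.99 and -0.80 (limma adjusted p = 0.0719 and 0.138), so neither was called. Gadd45a held 59.3, 37.1, 23.1, 22, 25 and 25 TPM against 37.4, 20.5, 19.7 and 20.4 TPM (0.33 ± 0.28, limma adjusted p = 0.471).

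The partners of Gadd45 proteins in the p38 and JNK pathway were called lower for 6 of 10 tested genes at 3 months, beside 7.65% of all genes, with a list median of -0.27 against -0.17 over all genes. After libraries were rescaled, a count for lists that was added after seeing the data, 0 of 10 were called, with a median of -0.10 against -0.02. Mapk12, a p38 kinase of muscle, stood at -0.37 and Map2k6, which activates p38, at -0.33, and Map3k4, the kinase that Gadd45 proteins bind, at -0.28 (limma adjusted p = 0.0485, 0.0459 and 0.0446). In gastrocnemius at 7 days 3 of 10 were called higher at 15 mg/kg, beside 11.1% of all genes called, with Map2k3 at 0.28, Mapk14 at 0.16 and Mapk12 at 0.15 (limma adjusted p = 0.0103, 0.0383 and 0.0251), and at 30 mg/kg Mapk14 was called higher at 0.16 and Map3k4 lower at -0.14. Of 4 cell cycle partners 2, Pcna and Cdkn1a, had enough signal to be tested. Cdkn1a was lower in FVB gastrocnemius at 7 days (-1.23 ± 0.34, limma adjusted p = 0.0115) and Pcna was called higher at 30 mg/kg (0.28, limma adjusted p = 0.0499).

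Other groups at 7 days in gastrocnemius were the regulators, the DNA demethylation genes and glucocorticoid genes. Hdac4 rose at 15 and 30 mg/kg (0.51 and 0.38, limma adjusted p = 0.00032 and 0.00264), as did Smad4 (0.25 and 0.26), and Smad3 rose at 15 mg/kg (0.47, limma adjusted p = 0.00424), so 3 and 2 of 14 tested regulators were called, all higher, beside 11.1% and 15.0% of all genes; 2 of 14 is near the share of all genes. Tet2, a dioxygenase that oxidises methylated cytosine, was lower at both doses (-0.62 and -0.61, limma adjusted p = 0.00115 and 0.000828), the only called gene of 7 in its list at either dose, a share near that of all genes. Of 11 glucocorticoid genes 3 rose at 15 mg/kg and 4 at 30 mg/kg, with medians of 0.35 and 0.34 beside 0.05 over all genes and the same 11.1% and 15.0% of genes called. Tsc22d3 stood at 0.67 and 0.70, Cebpd at 0.86 and 0.94 and Sgk1 at 0.51 and 0.38.

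The second intron of Gadd45g was the sole splicing event of the family that varied. The authors deposited splicing as the fraction of transcripts that include a sequence (percent spliced in, PSI, from 0 to 1), and 4 of 117460 events lay in the members. The intron, at chr13:51847454-51847555, is 102 bases long, a multiple of 3, and follows the second exon of Gadd45g-201, while Gadd45g-202 retains it. The other 3 events, skipped internal exons in each member, had a PSI of 0.983 to 1.0 in the 44 libraries with a value. Retention of the intron was higher in nascent RNA, with 0.416 ± 0.055 in PBS (SD, n = 4; 0.338 to 0.457) against 0.0725 ± 0.0262 in total RNA of the same cohort (0.052 to 0.109). The difference of 0.34 ± 0.03 was called (limma, adjusted p = 4.95e-05), beside 1.71% of 71849 events.

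Treated nascent RNA held less of the intron without passing the test. It stood at 0.259 ± 0.031 at 1 day (SD, n = 3, 0.234 to 0.294) and 0.233 ± 0.097 at 2 days (SD, n = 3, 0.166 to 0.344). The changes were -0.157 ± 0.036 (limma adjusted p = 0.149) and -0.184 ± 0.036 (limma adjusted p = 0.0564). The latter was called without treated replicate 3 (-0.239) or PBS replicate 3 (-0.21), and with no trend in the prior variance (limma adjusted p = 0.0446).

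In gastrocnemius at 7 days, retention was 0.225 ± 0.0498 in FVB (0.193 to 0.299) and 0.103 ± 0.051 in HSALR PBS (0.024 to 0.160). The difference of 0.122 ± 0.028 was called (limma adjusted p = 0.0295), beside 1.06% of 46521 events. It was lost without FVB replicates 1 or 2 or PBS replicates 6, 7 or 8 (0.097 to 0.133) and when only the compared groups were fitted (adjusted p of 0.0211 to 0.202 over 15 alternatives). At 4 days the same contrast gave 0.0375 in gastrocnemius (limma adjusted p = 0.705) and 0.0115 in quadriceps (limma adjusted p = 1). A PSI is a share, so it rests on more reads where Gadd45g is abundant, and the counts behind it are unknown.

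**Figure D5:**
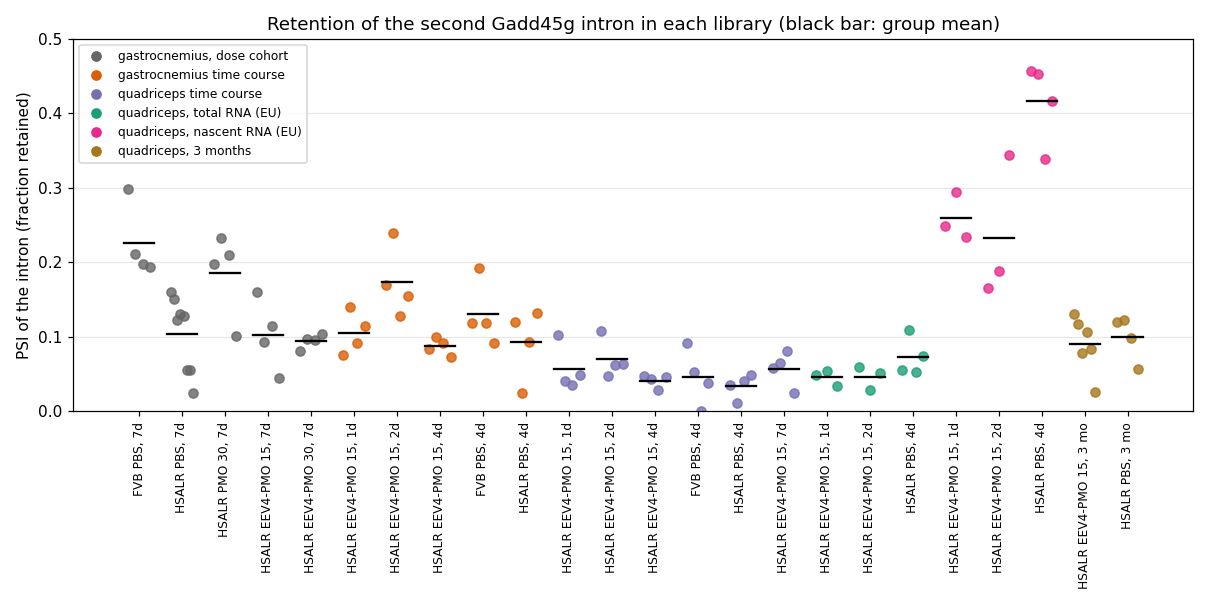
PSI of the second Gadd45g intron (y axis, fraction retained) in each of 98 libraries by group (x axis); colours mark cohorts and black bars group means. Nascent PBS libraries sit at 0.338 to 0.457, above all total RNA libraries, none of which exceeds 0.299.

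The genes whose levels went most closely with each member across libraries, after centring within cohort and kind of RNA, differed between members. For Gadd45a they were Cd82, Hdac4, Tgfbr1, Atp13a3 and Ampd3, with Pearson r from 0.86 to 0.89 over 98 libraries and 12334 genes compared. Their r fell to between 0.73 and 0.82 over the 94 libraries that remain without quadriceps at 4 days, where Cd82 stood at 55.4 ± 13.5 against 10.4 ± 3.71 TPM in PBS and Ampd3 at 47.9 ± 6.51 against 10 ± 3.87 TPM (SD, n = 4 each). For Gadd45b the closest were Nrbf2, Sec14l5, Ano6, 2510009E07Rik and Sema6c, with r from 0.71 to 0.80. For Gadd45g they were Ddit4, Rhob, Slc25a25, Tob2 and Ankrd9, with r from 0.63 to 0.79. Over the 88 total RNA libraries alone, r of the same genes ran from 0.87 to 0.90 for Gadd45a. It ran from 0.63 to 0.74 for Gadd45b and from 0.64 to 0.79 for Gadd45g. Among the members themselves r was -0.52 for Gadd45a with Gadd45b, -0.10 for Gadd45a with Gadd45g and -0.19 for Gadd45b with Gadd45g. These points share libraries and groups, and TPM shares a fixed total, so they describe likeness only.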

How the data were processed

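RNA of 98 mouse muscle libraries in 24 groups was depleted of ribosomal RNA and made into strand-specific libraries, per the labels' protocols. Per the submitters' processing notes, the builds were GRCm38 and mm10 and the tools STAR, kallisto and cutadapt, with no role given for each. The authors deposited TPM values (length-corrected abundances scaled to a fixed total) for 24526 genes, beside 2 reporter entries with missing values that were left out here, and a fraction (PSI, included over all transcripts) per splicing event from rMATS, per the labels. All columns matched a labelled sample.

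From these, log2(TPM + 1) was fitted with limma 3.58.1 (R 4.3.3), 1 fit per cohort with a term per group and a variance trend, over genes with a mean of at least 1 TPM, with Benjamini-Hochberg adjustment over all of them and 95% intervals unadjusted. PSI was fitted alike, a call also needing a difference of at least 0.1. There were 33 comparisons, 28 tested for the members and 5 described. The steps were tested on simulated data. The members and the gene lists were chosen with earlier results of these data known. Named in the text are the 3 members in every comparison, for each member the 5 genes with the highest Pearson r, and for each list its counts with up to 4 called genes by size of change, and values for others. Replicate numbers of nascent and total RNA in PBS paired the samples by their correlation (0.13 to 0.29 in 4 of 4 pairs), and the replicate block changed no call there. Alternatives were a pseudocount of 0.1 TPM, no filter, rescaling to the median, the compared groups alone, the replicate block, no variance trend and each library left out.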

Additional observations from a re-analysis of the deposited data

Results flagged for a closer look

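Of 80 groups of libraries examined for a value apart from the rest, 5 had one, and chance alone gives about 1 in 20. Gadd45a accounts for 4 of them. Gastrocnemius given EEV4-PMO had 51.4 TPM in replicate 3 at 1 day, where the next library had 20.5 TPM, and 319 TPM in replicate 2 at 4 days, where the next had 38 TPM and where lymphocyte and brown fat markers were present. Gastrocnemius given PBS for 4 days had 88.6 TPM in replicate 2, where the next had 25.7 TPM. Quadriceps given PBS at 3 months had 37.4 TPM in replicate 1, where the next had 20.5 TPM. The Gadd45g intron had a PSI of 0.299 in FVB replicate 1 of the 7-day gastrocnemius, the highest of all total RNA libraries.

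The change of Gadd45b from PBS differed in direction between times of the same cohort. In quadriceps every library lay above PBS at 1 day and below it at 4 days, a difference of -2.17 that was not tested. The difference between 7 days and 1 day, -1.49, was called (limma adjusted p = 0.000799), though this p may not be independent of the choice of Gadd45b. In nascent RNA every library lay above PBS at 1 day and below it at 2 days, a difference of -2.74 that was not tested.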

How the results depend on the processing

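Outside libraries left out, 606 values counted as unchanged, 22 lost a call, 5 gained one, 5 turned sign and 1 moved. None of the sign changes was in a called value. For tested contrasts, unchanged means the same call and direction. The 5 untested contrasts have no call. There a value counted as unchanged if it shifted by no more than the SD of its first group, whatever its sign. The value that moved was, for 1 member, the number of its 5 most alike genes that stayed with total RNA libraries only. With libraries left out, 887 were unchanged by the same rules, 59 lost a call, 5 gained one, 60 turned sign and 5 moved. Some untested values that counted as unchanged still crossed 0. In gastrocnemius at 1 day Gadd45a ran from -0.77 to 0.04 and Gadd45g from -0.2 to 0.56. Their differences between muscles in the 1-day change ran from -0.54 to 0.27 and from -0.36 to 0.77.

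The number of Gadd45 genes called moved as follows. In FVB against HSALR PBS at 7 days it went from 1 to 0 with no filter and with the replicate block. After 15 mg/kg of the conjugate it went from 3 to 1, and after 30 mg/kg from 2 to 1, in both settings; at 15 mg/kg it went to 2 with rescaling, the compared groups alone or no variance trend. For 30 mg/kg against FVB it went from 2 to 1 with no filter, rescaling, the block or no variance trend. With the compared groups alone it went from 0 to 1 in FVB gastrocnemius at 4 days and from 1 to 0 in nascent RNA at 2 days, where rescaling gave 2. At 3 months it went from 2 to 0 with rescaling or the block, and between muscles in HSALR PBS from 0 to 1 with either. Replicate numbers were not taken as pairs in these comparisons, since in none of them did every pair correlate above 0.1. Between muscles in HSALR PBS 3 of 4 pairs did, with r from 0.03 to 0.24. The labels do not say whether equal numbers are equal animals, so pairing there stays undecided. The Gadd45g call at 30 mg/kg and the intron call in FVB at 7 days were also lost with the block, and the latter with the compared groups alone. With no variance trend the nascent intron change at 2 days was called. Over libraries left out the number ran from 0 to 1 (FVB at 7 days, FVB gastrocnemius at 4 days, muscles in PBS), 0 to 2 (15 mg/kg, 3 months) and 1 to 2 (30 mg/kg against PBS and against FVB, quadriceps at 7 days).

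Signs turned for Gadd45g in FVB at 7 days with the replicate block (-0.17), for Gadd45a in EEV4-PMO against PMO with rescaling (-0.02), and for the nascent minus total change at 2 days for Gadd45b with a pseudocount of 0.1 (0.00) or rescaling (0.03) and Gadd45a with rescaling (0.06). With libraries left out, these tested but uncalled changes crossed 0. Gadd45a ran from -0.19 to 0.08 (FVB, 7 days), -0.30 to 0.32 (EEV4-PMO against PMO), -0.13 to 1.17 (gastrocnemius, 4 days), -0.01 to 0.39 (quadriceps, 2 days), -0.55 to 0.04 and -0.37 to 0.15 (EU cohort at 1 day, total and nascent), -0.14 to 0.45 and -0.21 to 0.17 (nascent minus total change at 1 and 2 days) and -0.36 to 0.33 (genotype change between muscles). Gadd45b ran from -0.25 to 0.12 (30 against 15 mg/kg), -0.38 to 0.02 (FVB, quadriceps), -0.17 to 0.23 (quadriceps, 2 days) and -0.33 to 0.37 (nascent minus total change at 2 days). Gadd45g ran from -0.14 to 0.23 (FVB, 7 days), -0.36 to 0.02 (PMO), -0.07 to 0.28 (30 against 15 mg/kg), -0.36 to 0.12 (gastrocnemius, 2 days), -0.65 to 0.48 (quadriceps, 1 day), -0.04 to 1.09 (7 days minus 1 day), -0.35 to 0.00 (7 days against FVB), -0.17 to 0.65 and -0.39 to 0.16 (EU cohort at 1 day, total and nascent), -0.80 to 0.03 and -0.33 to 0.12 (nascent minus total change at 1 and 2 days) and -0.04 to 0.44 (2-day change between muscles). The intron PSI in FVB quadriceps ran from -0.004 to 0.027. The causes were not tested. Leaving gastrocnemius EEV4-PMO replicate 2 of 4 days out of the shared fit, an alternative chosen after seeing the data, changed no call of the comparisons it is not part of. Rescaling moved the median of all genes by 0.13 in nascent RNA at 2 days, 0.15 at 3 months, -0.61 between nascent and total RNA and -0.14 between muscles in HSALR PBS. TPM keeps no read depth, so precision rests on the number of libraries.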

Other observations

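Some immediate early genes, which many stimuli induce quickly, were called in the comparisons above. Those named here are called genes only, so they do not describe the list as a whole. Atf3, a stress-induced transcription factor, stood at -2.69 ± 0.45 in FVB against HSALR PBS gastrocnemius at 7 days (limma adjusted p = 0.000171), at -2.11 ± 0.41 in quadriceps 2 days after the conjugate (limma adjusted p = 0.00973) and at -1.60 ± 0.41 after 7 days (limma adjusted p = 0.0134). Of all genes, 20.6%, 1.94% and 13.9% were called in these contrasts. In nascent RNA at 2 days Fos, a subunit of AP-1, was called lower (-1.26 ± 0.29, limma adjusted p = 0.0161), and Zfp36, which binds AU-rich messages, was called higher (1.25 ± 0.34, limma adjusted p = 0.037). There 6.26% of all genes were called.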
